A study of Mus musculus with 24 samples.

Results

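Microglia of homozygous knockout mice (HOM) were compared with microglia of heterozygous knockout mice (HET) at 17 months of age, for the gene 3110043O21Rik, the mouse counterpart of human C9orf72. The comparison rests on 8 of the 24 libraries of the series, 4 HOM and 4 HET, chosen by the genotype and age of their labels. Both genotypes carry the knockout allele, on 1 copy in HET and on both copies in HOM, and all mice were C57BL/6J. The 4 wild types (WT) of 17 months entered the same fit, and the libraries of 3 months served to test whether the HOM against HET difference changed with age. How the allele was built, and whether it is lost in all cells, is not given in the labels. Per the labels' protocols, meninges were taken off, brains were dissociated with papain, myelin was removed, and cells bearing CD11b, a surface integrin of myeloid cells, were collected on magnetic beads. Polyadenylated RNA was sequenced in bulk. No treatment other than the genotype is labelled.

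C9orf72 forms a complex with Smcr8 and Wdr41 that acts on small GTPases and on lysosomes and autophagy, and myeloid cells are among the cells that express it most. Microglia are the resident macrophages of the brain. With age or near plaques and dying cells they can take on a disease-associated state, in which genes such as Apoe, Spp1, Lpl, Clec7a and Cd9 rise. Brain vessels are lined by endothelial cells that form the blood-brain barrier and are wrapped by pericytes and smooth muscle cells. Fragments of vessels can be carried through a tissue dissociation, and in bulk RNA a larger number of such cells and more RNA per cell cannot be told apart.

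Some features of the libraries moved with the genotype and bear on every result below. The HET libraries held 30.6 to 37.1 M alignments (34.0 ± 3.33, SD, n = 4) and the HOM libraries 40.7 to 46.4 M (42.4 ± 2.67), without overlap (exact two-sided permutation p = 0.0286, the smallest that 4 against 4 allows). The labelled total RNA input averaged 55.8 ng in HET and 158.5 ng in HOM (exact permutation p = 0.0571). Sex is not labelled, but Y-linked transcripts were at 60.8 to 73.7 TPM in sum in 3 HOM animals and under 0.2 TPM in HOM-7901 and in all 4 HET animals. Xist, the transcript that silences the second X chromosome, stood at 16.1 to 27.9 RPKM in HET and at 20 RPKM in HOM-7901, and under 0.1 RPKM in the other HOM animals. HOM thus held 3 males and 1 female, HET 0 males and 4 females, and WT 1 male (WT-7785). The library of HET-7796 stood apart on the first principal component, which carried 28.1% of the variance, and its listed genes summed to 78.9% of the TPM total. The part of depth, input, sex and this library in the results was not tested beyond the values given beside them.

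The targeted gene was read first (4:35191285-35226175 on the minus strand, GRCm38). TPM, transcripts per M, is a level that corrects for transcript length and library size. 3110043O21Rik stood at 6.53, 7.89, 8.95 and 5.45 TPM in the HET animals and at 0.0333, 0.0484, 0.0148 and 0.0477 TPM in the HOM animals. The groups did not overlap, the HOM mean was 0.50% of the HET mean, and the HET mean of 7.20 ± 1.53 TPM was 48.5% of the WT mean of 14.9 ± 1.48 TPM (exact permutation p = 0.0286 for HOM against HET). The partners of the protein did not pass the test. Smcr8 averaged 16.4 ± 3.63 TPM in HET and 17.0 ± 1.80 in HOM (limma adjusted p = 0.907). Wdr41 averaged 24.5 ± 8.13 and 25.6 ± 0.519 TPM (limma adjusted p = 0.847).

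Transcripts of brain vessels were higher in HOM than in HET, and a small group of genes of the disease-associated state was lower. Over the 12 animals of 17 months, 11792 genes averaged 1 TPM or more, and 219 of them were called (1.86%), 199 higher in HOM (1.69%) and 20 lower (0.17%). A call means an adjusted p under 0.05 in limma's moderated test on log2(TPM + 1), a scale that understates the change of genes near 1 TPM. An unadjusted p under 0.05 was reached by 1529 genes. The median change of all genes tested was 0.069 on the log2 scale. In 217 of the 219 genes the 4 HOM and the 4 HET animals did not overlap. Of all genes tested, 6.68% were apart with HOM higher and 1.17% with HOM lower. The calls were made on the same values, so this separation is no support beyond them. The share of higher calls depended on scaling: it was 90.9% as deposited, 61.9% after median centring (153 higher, 94 lower) and 67.2% after quantile normalization (131 higher, 64 lower). Leaving out HOM-7899, HET-7795 or HOM-7893 left 104, 106 and 111 calls, and leaving out HET-7796 left 190.

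**Figure D1:**
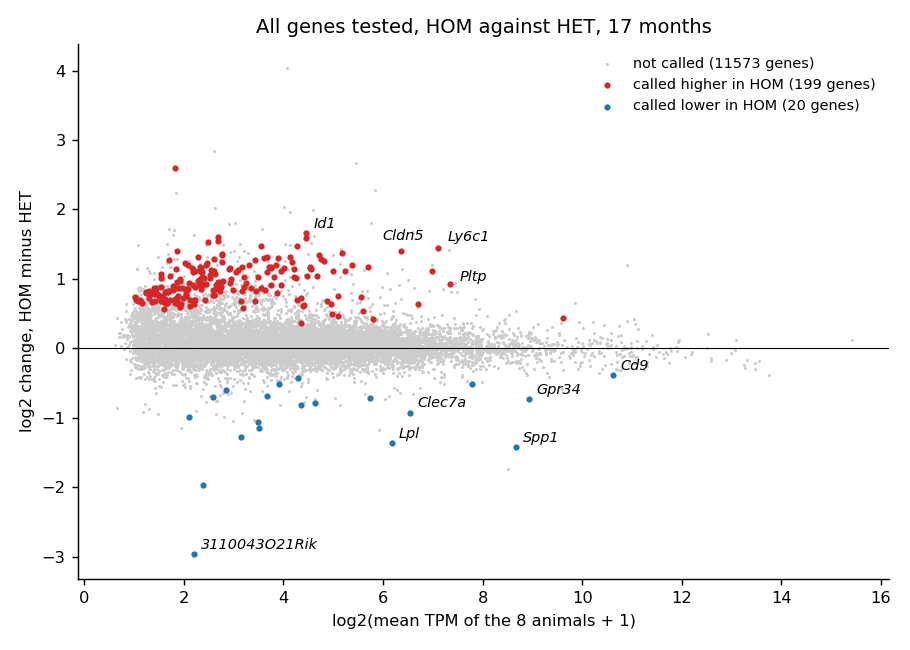
Each point is a gene of the 17-month fit, with log2(mean TPM of the 8 animals + 1) on the horizontal axis and the log2 change (HOM minus HET) on the vertical axis, and called genes are in colour. The 199 genes called higher outnumber the 20 called lower, and Spp1, Lpl and the targeted gene lie farthest below zero among the labelled genes.

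With sex as a term in the model, 45 genes were called (0.382%), 42 higher (0.356%) and 3 lower (0.0254%), of which 32 were among the 219. Among females alone, where HOM is the single animal HOM-7901, 1 gene was called. HOM-7901 stood above every HET animal in 197 of the 199 genes called higher (99.0%, against 20.2% of all genes) and below every HET animal in all 20 genes called lower (15.3% of all genes). The animals entered the calls themselves, so these shares describe where that female lies. The median change of the 199 genes was 0.91 in the main fit, 0.87 with the sex term, 0.80 for HOM-7901 against HET and 0.95 for the male HOM against HET. The male WT-7785 differed from the 3 female WT by a median of 0.01 over the same genes.

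Transcripts of endothelial surface and junction proteins were higher in HOM. Of 10 kept members of a marker list for endothelial and mural cells, 9 were called higher and 0 lower, with a median log2 change of 1.08 against 0.069 for all genes. The list was chosen with earlier results of these data known. Of all genes tested, 1.69% were called higher, the share to set beside this and each vessel list below. All 10 members had HOM animals above HET animals, which 6.68% of all genes tested did. The summed level of the list was 775 to 997 TPM in HET, 1255 to 1512 TPM in HOM and 949.9 to 1080 TPM in WT. The number called was 5 without HET-7795 or without HOM-7835, 7 without HET-7796, and 1 with the sex term. Under median centring and quantile normalization 7 and 8 members were called, with medians of 0.99 and 0.98.

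Cldn5, the claudin that seals endothelial tight junctions, was at 62.9, 41.4, 29.7 and 45.4 TPM in the HET animals and at 131, 123, 125 and 89.8 TPM in the HOM animals. The lowest HOM value, in the female HOM-7901, lay above the highest HET value. Its log2 change was 1.40 with an SE of 0.185 (limma adjusted p = 0.00220), and 1.18 with the sex term (adjusted p = 0.0523). Ly6c1, a surface antigen of brain endothelium and of some leukocytes, was at 95.0, 74.9, 54.6 and 70.9 TPM in HET and at 206, 189, 236 and 171 TPM in HOM. Every HOM animal was above every HET and WT animal, and the log2 change was 1.45 (SE 0.165, limma adjusted p = 0.00134). Emcn, a sialomucin of capillary and venous endothelium, was at 5.32, 4.83, 4.43 and 5.14 TPM in HET and at 14.4, 12.7, 13.7 and 10.3 TPM in HOM (log2 change 1.21, SE 0.116, limma adjusted p = 0.000420). The HET values of Emcn spanned less than 1 TPM, and the HOM values were all above the WT range of 6.60 to 7.60 TPM.

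Of 24 further endothelial identity genes and receptors, a list assembled after the values had been seen, 17 were called higher and 0 lower (median log2 change 0.93), and 3 were called with the sex term. They included the adhesion molecule Esam (9.04 ± 2.17 TPM in HET, 23.8 ± 3.52 in HOM), the guidance receptor Robo4 (2.31 ± 0.565 and 6.55 ± 0.419) and the adrenomedullin receptor component Ramp2 (14.3 ± 5.56 and 36.1 ± 4.64). Vwf, the clotting factor that endothelium stores, averaged 2.93 ± 1.32 TPM in HET and 8.70 ± 1.39 TPM in HOM, and its call was lost without HET-7795 or HOM-7899. Pecam1, the junctional adhesion molecule CD31, averaged 21.5 ± 3.23 and 35.3 ± 7.07 TPM (log2 change 0.68, limma adjusted p = 0.0282), and its call was lost without HET-7795, HET-7796, HOM-7835, HOM-7893 or HOM-7899. Egfl7, a secreted endothelial factor, averaged 31.3 ± 7.85 and 70.7 ± 8.67 TPM (log2 change 1.17, limma adjusted p = 0.00462). With the sex term Esam passed (limma adjusted p = 0.0474), and Ramp2, Vwf and Egfl7 did not (0.0796, 0.110 and 0.0808).

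The VEGF receptors Kdr and Flt1 had log2 changes of 0.78 and 0.76 and did not pass (limma adjusted p = 0.108 and 0.0617). Eng and Cd34, which microglia and some blood cells also express, did not pass either. Eng averaged 84.3 ± 19.8 TPM in HET and 87.9 ± 14.9 TPM in HOM. Cd34 averaged 250.4 ± 22.9 and 216 ± 14.2 TPM (log2 change -0.21). The higher calls therefore did not extend to these abundant members of the list.

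**Figure D2:**
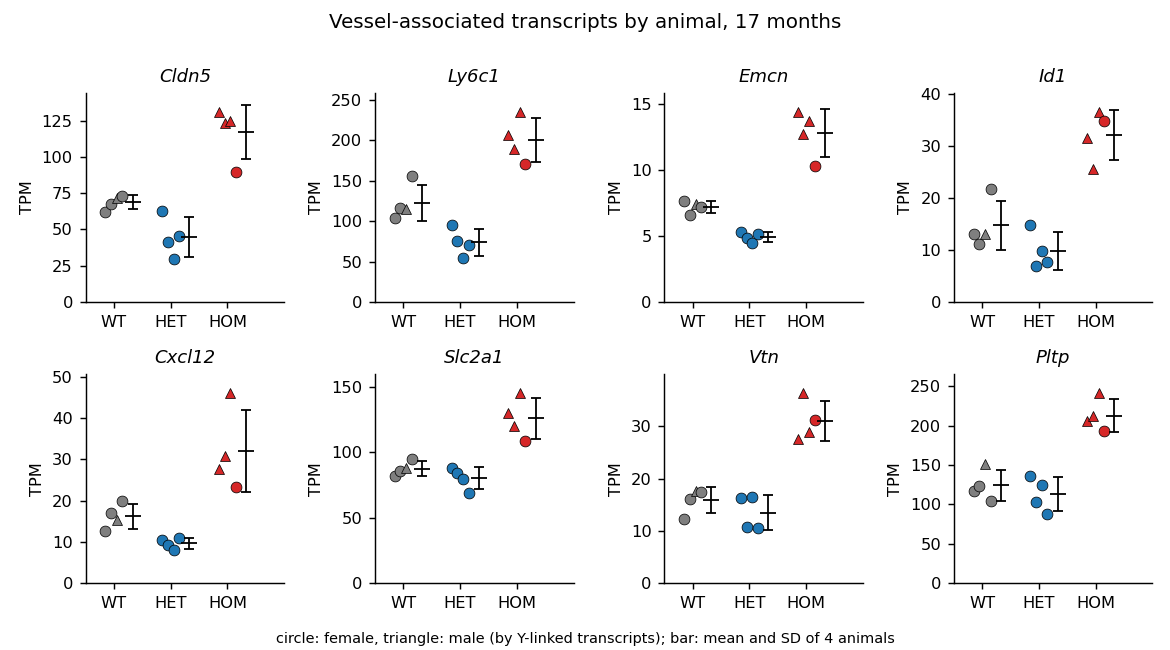
TPM by animal is shown on the vertical axis for 8 vessel-associated transcripts, with WT, HET and HOM on the horizontal axis, circles for females, triangles for males, and bars for the mean and SD of 4 animals. In Cldn5 the 4 HOM animals sit between 89.8 and 131 TPM and the 4 HET animals between 29.7 and 62.9 TPM.

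Among transcription regulators of endothelium, again a list assembled afterwards, 9 of 16 were called higher and 0 lower (median log2 change 0.89), and 4 were called with the sex term. Id1, an inhibitor of helix-loop-helix factors and a direct target of BMP signalling, was at 14.8, 6.89, 9.78 and 7.62 TPM in HET and at 31.5, 25.5, 36.5 and 34.8 TPM in HOM. HOM animals were at 25.5 TPM or more and no HET or WT animal exceeded 21.7 TPM. The log2 change was 1.66 (SE 0.228, limma adjusted p = 0.00234), and it passed with the sex term (1.78, adjusted p = 0.0379) and without any single library. Id3, its close relative, averaged 19.4 ± 5.04 TPM in HET and 50.9 ± 5.17 TPM in HOM (log2 change 1.37, limma adjusted p = 0.00145). Id2 averaged 79.0 ± 11.4 and 66.5 ± 6.64 TPM and did not pass (limma adjusted p = 0.403). Of 15 BMP receptors, Smads and Id genes, Id1 and Id3 were the 2 called, and the median log2 change was 0.14.

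Sox17 and Sox18, SRY-box factors of arterial and lymphatic endothelium, and the ETS factor Erg were all called higher. Sox18 averaged 5.32 ± 2.18 TPM in HET and 16.0 ± 1.28 TPM in HOM (log2 change 1.48, limma adjusted p = 0.00234). Erg averaged 1.81 ± 0.732 and 5.11 ± 0.797 TPM (log2 change 1.15, limma adjusted p = 0.00944). Fli1 and Ets1, ETS factors that myeloid cells also express, did not pass: Fli1 averaged 48.3 ± 5.52 and 39.7 ± 4.34 TPM, and Ets1 33.1 ± 4.15 and 33.2 ± 6.13 TPM. Epas1, a hypoxia-inducible factor abundant in endothelium, averaged 14.6 ± 2.97 and 37.1 ± 6.51 TPM (log2 change 1.29, limma adjusted p = 0.00172).

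Of 23 kept junction and transporter genes of the blood-brain barrier, a list chosen afterwards, 12 were called higher and 0 lower (median log2 change 0.68), and 6 were called with the sex term. Slc2a1, the glucose transporter GLUT1, was at 88.4, 84.5, 79.6 and 69.1 TPM in HET and at 130.1, 120.2, 145 and 108 TPM in HOM. The groups did not overlap, and the log2 change was 0.64 (SE 0.105, limma adjusted p = 0.00613). Slco1c1, a thyroid hormone transporter, averaged 13.5 ± 1.10 TPM in HET and 28.8 ± 1.07 TPM in HOM, and it passed with the sex term as well (adjusted p = 0.0131). Mfsd2a, which carries lysolipids into the brain, averaged 2.58 ± 0.629 and 7.62 ± 0.713 TPM (log2 change 1.28, limma adjusted p = 0.00172). Abcb1a, the efflux pump P-glycoprotein, had a log2 change of 1.17 (limma adjusted p = 0.00234), and Lsr, a protein of tricellular junctions, averaged 8.24 ± 1.02 and 17.8 ± 0.812 TPM. With the sex term Mfsd2a passed (limma adjusted p = 0.0379), and Slc2a1 and Abcb1a did not (0.0923 and 0.0595). The members that did not pass included Tjp1 (39.7 ± 12 and 38.1 ± 7.63 TPM), F11r (384 ± 64.1 and 369.9 ± 34.0 TPM) and Slco2b1 (477 ± 114 and 474 ± 84.1 TPM). F11r and Slco2b1 stood at higher TPM levels in these libraries than any called member named here.

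Mural cells and the vessel basement membrane showed the same direction. Of 13 kept pericyte and smooth muscle genes, 7 were called higher and 0 lower (median log2 change 0.76). Of 9 basement membrane genes, 5 were called higher and 0 lower (median 0.65), where 1.69% of all genes tested were called higher. Both lists were assembled after the values had been seen. With the sex term 0 genes of either list were called. Vtn, the adhesive protein vitronectin made by pericytes, was at 16.3, 10.8, 16.4 and 10.6 TPM in HET and at 27.6, 36.3, 28.9 and 31.1 TPM in HOM (log2 change 1.16, SE 0.165, limma adjusted p = 0.00279). Its HOM values were also above the WT range of 12.3 to 17.6 TPM (limma adjusted p = 0.0440 against WT). Pdgfrb, the PDGF receptor of pericytes, averaged 1.52 ± 0.164 TPM in HET and 3.07 ± 0.204 TPM in HOM. Acta2, smooth muscle actin, averaged 5.11 ± 1.66 and 11.4 ± 3.07 TPM (log2 change 1.03, limma adjusted p = 0.0379), a call that held when HET-7791, HET-7796, WT-7783 or WT-7785 was left out and not without any other library. The collagen IV chains Col4a1 and Col4a2 averaged 3.32 ± 0.545 and 1.89 ± 0.479 TPM in HET and 7.21 ± 1.41 and 5.23 ± 1.19 TPM in HOM. Anpep, a peptidase of pericytes and of myeloid cells, did not pass, at 4.26 ± 1.38 and 3.85 ± 0.750 TPM.

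Caveolae, the membrane pits that are frequent in endothelium and smooth muscle, had 5 of 8 kept genes called higher and 0 lower (median log2 change 0.90). The coat protein Cav1 averaged 5.51 ± 1.28 TPM in HET and 10.9 ± 1.61 TPM in HOM, and the cavins Ptrf, Sdpr and Prkcdbp had log2 changes of 1.12, 1.07 and 1.09. Wnt signalling maintains the barrier state of brain endothelium, and of 14 kept Wnt receptors and targets 7 were called higher and 0 lower (median 0.67). With the sex term 1 caveola gene and 0 Wnt genes were called. The feedback target Axin2 averaged 0.944 ± 0.0969 and 2.35 ± 0.218 TPM, the nuclear effector Lef1 2.03 ± 0.269 and 4.50 ± 0.513 TPM, and the Wnt inhibitors Apcdd1 and Notum had log2 changes of 0.97 and 1.15. The call of Cav1 was lost without HET-7795, HOM-7835, HOM-7893 or HOM-7899, and that of Notum without HET-7795, HOM-7893 or HOM-7899. Both lists were chosen after the values had been seen.

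Cxcl12, a chemokine made by vessels and stroma, was at 10.5, 9.23, 8.0 and 11 TPM in HET and at 27.8, 30.9, 46.0 and 23.4 TPM in HOM (log2 change 1.59, SE 0.189, limma adjusted p = 0.00158). Each HOM animal was above the WT maximum of 19.8 TPM, and the call held with the sex term (adjusted p = 0.0379). Its scavenging receptor Ackr3 was also called higher, at 1.81 ± 0.760 TPM in HET and 3.96 ± 0.209 TPM in HOM, and lost its call without HET-7795, WT-7783 or any HOM animal. Its signalling receptor Cxcr4 did not pass: HET animals were at 39.7, 24.6, 41.2 and 0.000509 TPM and HOM animals at 34.6, 22.6, 85.1 and 30.5 TPM. The near-zero value belongs to HET-7796. Pltp, a phospholipid transfer protein, was at 136, 103, 124 and 87.9 TPM in HET and at 206, 212, 241 and 193 TPM in HOM (log2 change 0.93, SE 0.143, limma adjusted p = 0.00481). Cd59a, an inhibitor of the complement attack complex, averaged 2.75 ± 0.673 and 6.19 ± 1.73 TPM, and its call held only when HET-7791, HOM-7835, WT-7782 or WT-7943 was left out. With the sex term Pltp and Cd59a did not pass (limma adjusted p = 0.0913 and 0.0694).

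Of the other genes with large changes, Ltbp4, a matrix protein that binds latent TGF-beta, averaged 9.47 ± 3.51 TPM in HET and 27.3 ± 5.15 TPM in HOM (log2 change 1.47, limma adjusted p = 0.00234). Vwa1, a protein of basement membranes, averaged 6.31 ± 1.25 and 17.0 ± 2.20 TPM (log2 change 1.31, limma adjusted p = 0.000604). Nostrin, which regulates endothelial nitric oxide synthase, averaged 1.94 ± 1.16 and 5.74 ± 0.826 TPM, and its call was lost without HET-7794, WT-7782, WT-7783, WT-7785 or any HOM animal. Grrp1 was at 3.49, 2.41, 1.55 and 1.53 TPM in HET and at 8.0, 8.44, 8.56 and 9.52 TPM in HOM (log2 change 1.61, SE 0.173, limma adjusted p = 0.000779). With the sex term Vwa1 and Grrp1 passed (limma adjusted p = 0.0330 and 0.0359), and Ltbp4 and Nostrin did not (0.0595 and 0.178). Together the 10 lists of vessel, fibroblast, caveola, Wnt and BMP genes held 124 kept genes, of which 64 were called higher and 0 lower. All but the endothelial and mural marker list were assembled after the values had been seen, and that list was chosen with earlier results of these data known. This total therefore partly reflects those choices. Of the 199 genes called higher, 133 belonged to no list. The 3 kept fibroblast genes held 0 calls (median log2 change 0.34).

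**Figure D3:**
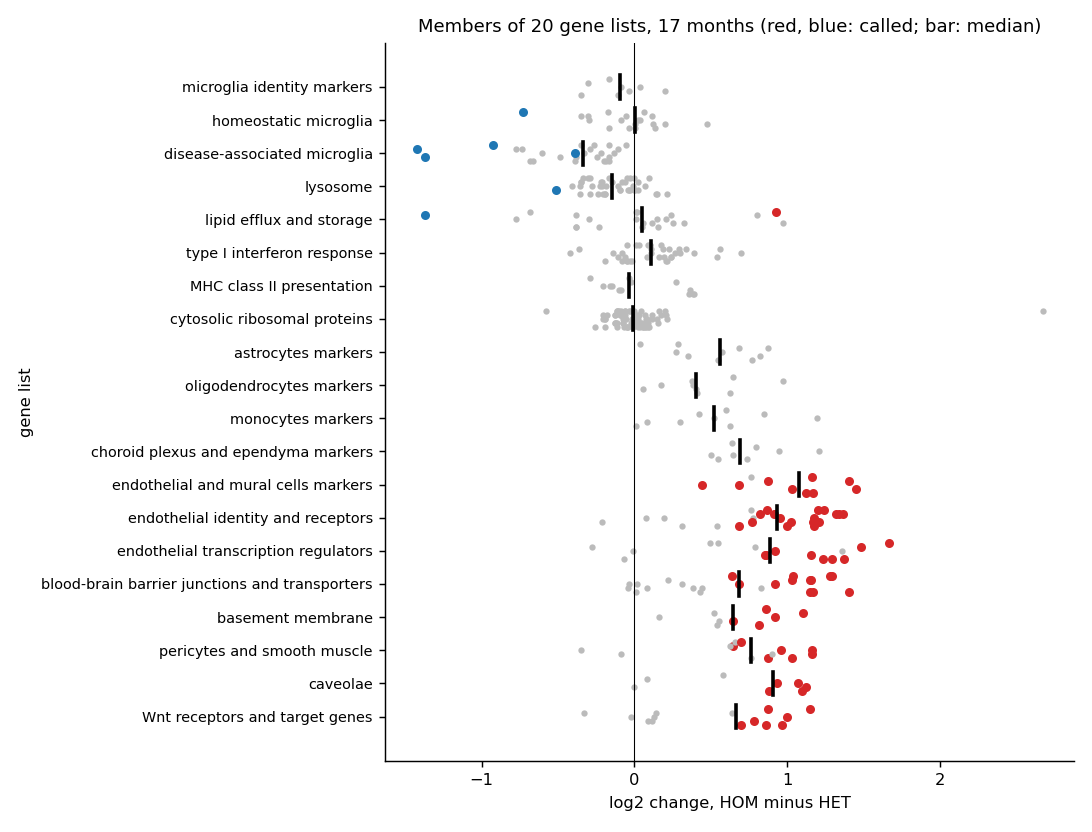
Each row is a gene list and each point a kept member, with the log2 change (HOM minus HET) on the horizontal axis, red for called higher, blue for called lower, and a bar for the median. The vessel lists lie right of zero with medians from 0.65 to 1.08 for the lists of endothelial, barrier, basement membrane and mural genes, and the disease-associated list lies left of zero with a median of -0.34.

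Markers of other cell types that a CD11b selection can carry along were read beside the vessel genes. Medians were positive for astrocytes (0.56, 10 of 10 members positive), oligodendrocytes (0.40, 9 of 9), monocytes (0.52, 9 of 9), neutrophils (0.37, 9 of 9), erythrocytes (1.5, 4 of 4) and choroid plexus and ependyma (0.69, 8 of 8), and 0 members of these lists were called by limma. At an unadjusted p under 0.05 they held 3, 1, 1, 0, 0 and 5 genes in that order. Other lists were less uniform. Border-associated macrophages had a median of 0.043 (6 of 10 positive), neurons 0.20 (4 of 7) and oligodendrocyte precursors 0.38 (2 of 3). T and NK cells had a median of 0.39 (7 of 7) and B and plasma cells 0.57 (3 of 4). These lists held 0 calls as well. Their part in the vessel difference was not tested. The summed choroid plexus level was 1090 to 1520 TPM in HET and 1657 to 4835 TPM in HOM, without overlap. Ttr, the choroid plexus carrier of thyroid hormone, was at 1375, 1062, 961 and 1012 TPM in HET and at 1508, 2186, 2866 and 4288 TPM in HOM (limma adjusted p = 0.199). The summed astrocyte level was 182 to 245 TPM in HET and 246 to 432 TPM in HOM. The sums of erythrocyte markers (36.0 to 359.8 TPM in HET, 123 to 2068 TPM in HOM) and of neutrophil markers (566 to 11404 and 2301 to 6161 TPM) overlapped between the groups.

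Markers of microglial identity were abundant in every library. Of 8 identity markers, which include Tmem119, P2ry12 and Cx3cr1, all were kept, 0 were called by limma, 1 had an unadjusted p under 0.05, and the median change was -0.10. Their summed level was 16003 to 23168 TPM in HET and 16264 to 21338 TPM in HOM. Tmem119, a surface protein of microglia, averaged 1803 ± 397 and 1837 ± 328 TPM. The purinergic receptor P2ry12 averaged 1434 ± 286 and 1143 ± 339 TPM (limma adjusted p = 0.503).

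For the called genes, wild types mostly lay between the other genotypes. The WT mean was between the HET and HOM means for 182 of the 199 genes called higher and for 13 of the 20 called lower. These genes were selected for a wide gap between HET and HOM in the same fit, which favours a WT mean in between. The counts therefore only describe where WT lay. Against WT, HOM had 84 called genes (0.712%), 55 higher (0.466%) and 29 lower (0.246%), which included 35 of the 199, and HET had 28 (0.237%), all of them lower. These comparisons share the HOM or HET libraries with the one described, so their values stand side by side only. For the endothelial and mural marker list the median log2 change was 0.41 for HOM against WT and -0.54 for HET against WT. For 13 genes called higher, the WT mean was below the HET mean, and 12 of them were also called against WT. A WT mean below HET makes the change against WT the larger one, so this count largely follows from the selection.

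Some of these 12 are no vessel genes. Pde1b, a calmodulin-dependent phosphodiesterase, was at 32.0, 39.8, 34.3 and 28.5 TPM in HET, at 46.3, 74.4, 66.4 and 45.4 TPM in HOM, and at 31.7 ± 4.92 TPM in WT (log2 change against HET 0.75, limma adjusted p = 0.0408). Insl3, an insulin-like peptide hormone, was at 16.2, 15, 16.4 and 8.24 TPM in HET and at 25.3, 29.4, 33.6 and 36.7 TPM in HOM (log2 change 1.14, limma adjusted p = 0.0137). In the RPKM table the change of Insl3 was 0.78 and did not pass (adjusted p = 0.295). Thap3, a zinc finger protein, averaged 38.5 ± 5.0 TPM in HET, 56.3 ± 6.84 in HOM and 37.4 ± 3.55 in WT. Zdhhc1, a palmitoyltransferase, averaged 16.9 ± 0.255, 22.1 ± 1.63 and 15.1 ± 0.813 TPM in the same order. Csrp2, unlike these, is a LIM protein of smooth muscle, and it averaged 6.97 ± 1.60, 12.9 ± 1.37 and 5.25 ± 0.747 TPM. Without HOM-7899 the calls of Insl3 and Csrp2 against HET were lost. That of Pde1b held only when HET-7794, HOM-7835, HOM-7901 or WT-7785 was left out, that of Thap3 was lost without HET-7795, HET-7796, HOM-7893, HOM-7899, HOM-7901, WT-7782 or WT-7783, and that of Zdhhc1 without any of the 12 animals.

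Genes of the disease-associated state were lower in HOM than in HET. Of 26 kept members of the list, 4 were called lower (Spp1, Lpl, Clec7a and Cd9) and 0 higher, none had a positive change, and the median log2 change was -0.34 against 0.069 for all genes. Of all genes tested, 0.17% were called lower. The list was chosen with earlier results of these data known. HOM animals lay below all HET animals for 10 of the 26, which 1.17% of all genes tested did. The number called was 1 without HET-7795 or HOM-7893, 2 without HET-7794, 3 without HET-7796, and 0 with the sex term. It was 7 after median centring and 6 after quantile normalization, with medians of -0.42 and -0.32. The male WT-7785 had a median of -0.18 against the female WT over this list, and HOM-7901 a median of -0.32 against HET. Against WT the list had a median of -0.18 for HOM and 0.29 for HET, with 0 members called in either comparison. WT thus lay between the 2 genotypes over this list.

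Spp1, the secreted phosphoprotein osteopontin, was at 539, 584, 664 and 532 TPM in HET and at 222, 119, 279 and 289 TPM in HOM. All HOM animals were below all HET animals, while WT animals ranged from 260.0 to 605 TPM across both. The log2 change was -1.42 (SE 0.292, limma adjusted p = 0.0244), and the call was lost without HET-7794, HET-7795, HOM-7835 or HOM-7893. Lpl, lipoprotein lipase, was at 95.7, 115, 111 and 89.5 TPM in HET and at 39.1, 26.8, 48.2 and 45.6 TPM in HOM. The groups lay far apart, and the change of -1.37 (SE 0.232, limma adjusted p = 0.00751) passed without any single library. With the sex term it was -1.07 (adjusted p = 0.113). Clec7a, the glucan receptor Dectin-1, was at 100.3, 109, 161 and 114 TPM in HET and at 67.0, 51.3, 70.3 and 62.2 TPM in HOM (log2 change -0.92, SE 0.179, limma adjusted p = 0.0174). No HOM animal reached the lowest HET value, and the call was lost without HET-7795 or HOM-7893.

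Cd9, a tetraspanin, was at 1779, 1742, 1888 and 1708 TPM in HET and at 1506, 1263, 1371 and 1312 TPM in HOM (log2 change -0.39, SE 0.0879, limma adjusted p = 0.0413). Its call held when WT-7785, WT-7943 or HOM-7835 was left out and was lost without any other library. The members that did not pass included Apoe, the lipid carrier, at 15729 ± 3020.5 TPM in HET and 11937 ± 1174 TPM in HOM (limma adjusted p = 0.405). The growth factor Csf1 averaged 59.8 ± 8.34 and 37.8 ± 7.71 TPM (adjusted p = 0.0708), and the receptor tyrosine kinase Axl 93.5 ± 24.6 and 60.5 ± 10.9 TPM (adjusted p = 0.145). Itgax, the integrin CD11c, averaged 80.6 ± 17.0 and 48.4 ± 12.2 TPM, and the protease Ctsl 528 ± 45.5 and 413 ± 30.9 TPM. Trem2, the receptor upstream of this state, averaged 3018 ± 157 and 2903 ± 229 TPM (adjusted p = 0.839), and its adaptor Tyrobp 6564 ± 289 and 5791 ± 439 TPM.

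**Figure D4:**
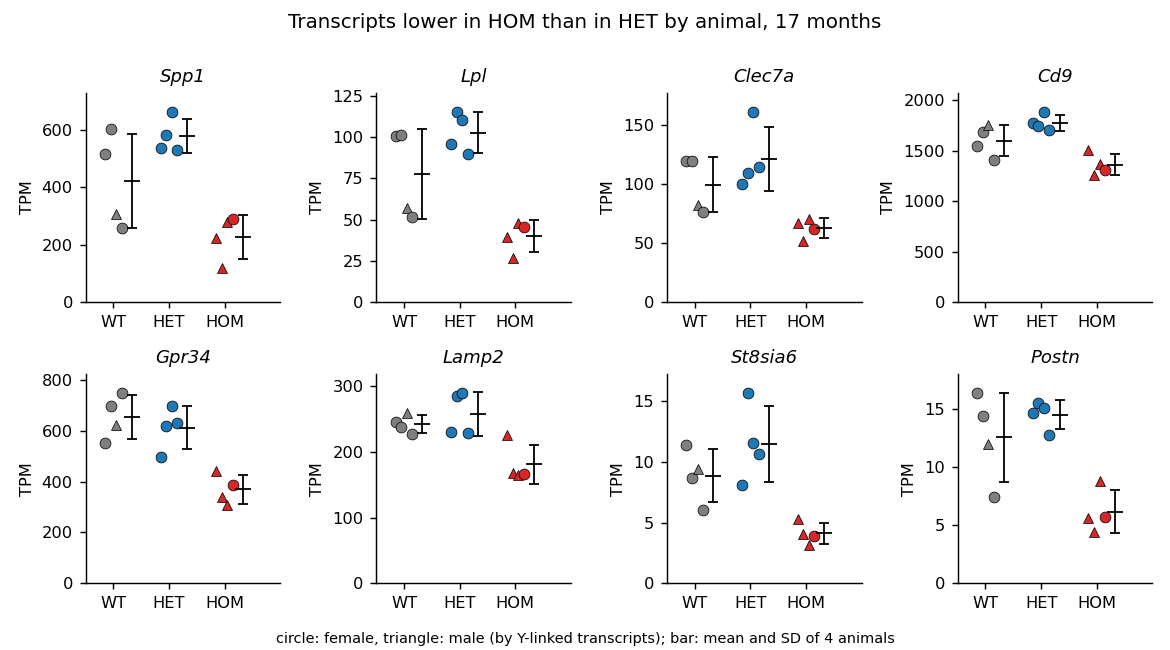
TPM by animal is shown on the vertical axis for 8 transcripts called lower in HOM than in HET, with WT, HET and HOM on the horizontal axis, circles for females, triangles for males, and bars for the mean and SD of 4 animals. For Spp1 the HOM animals sit between 119 and 289 TPM, below the HET range of 532 to 664 TPM, and the WT animals spread from 260.0 to 605 TPM.

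The homeostatic list had 1 of 19 kept members called, Gpr34, a lysophosphatidylserine receptor of microglia on the X chromosome. Gpr34 was at 497, 619, 698 and 630.1 TPM in HET and at 439, 340.4, 308 and 388 TPM in HOM (log2 change -0.73, SE 0.136, limma adjusted p = 0.0138). It was also below WT, which averaged 653 ± 86.2 TPM (adjusted p = 0.0349), and the call against HET was lost without HET-7795, HOM-7893 or HOM-7899. With the sex term the change against HET was -0.65 and did not pass (limma adjusted p = 0.125). The median change over the homeostatic list was 0.0013.

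Lamp2, a lysosomal membrane protein encoded on the X chromosome, was at 229.8, 285, 289 and 228 TPM in HET and at 225, 167, 165 and 166 TPM in HOM. The male HOM-7835 lay just under the lowest HET animal, and the change of -0.51 (SE 0.117, limma adjusted p = 0.0425) held only when HET-7791, HET-7796 or HOM-7835 was left out. With the sex term the change of Lamp2 was -0.62 and did not pass (limma adjusted p = 0.0923). Lamp2 was the 1 called member of 43 kept lysosome genes, of which 8 had a positive change (median -0.15).

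The other genes called lower came from no single list. St8sia6, a sialyltransferase, was at 8.10, 15.7, 11.6 and 10.7 TPM in HET and at 5.27, 4.09, 3.17 and 3.94 TPM in HOM (log2 change -1.27, SE 0.205, limma adjusted p = 0.00600), and it passed without any single library. Postn, the matrix protein periostin, averaged 14.6 ± 1.22 and 6.15 ± 1.85 TPM, and its call was lost without HET-7795 or HOM-7893. With the sex term St8sia6 and Postn did not pass (limma adjusted p = 0.0598 and 0.0923). Lox, which cross-links collagen, averaged 4.75 ± 1.54 and 1.89 ± 0.609 TPM, and its call was lost without HET-7794, HET-7795, HOM-7835, HOM-7893 or HOM-7899. Pdcd1, the checkpoint receptor PD-1, averaged 24.9 ± 5.20 and 13.7 ± 3.17 TPM (log2 change -0.82, limma adjusted p = 0.0399). With the sex term its change was -1.17 (adjusted p = 0.0379), while the call without that term held only when HET-7791, HOM-7835, WT-7785 or WT-7943 was left out. Xlr, an X-linked lymphocyte-regulated gene, averaged 64.8 ± 7.45 and 39.5 ± 6.54 TPM, and Rnf128, an X-linked ubiquitin ligase, 14.7 ± 2.06 and 8.79 ± 1.10 TPM, and Rnf128 lost its call without HET-7795, HOM-7893 or HOM-7899. Xlr kept its call without any single library but lost it with the sex term (limma adjusted p = 0.0923) and in the RPKM table (adjusted p = 0.0566). Rnf128 also lost its call with the sex term (limma adjusted p = 0.143). The remaining called genes were Tmed5, Hltf, Vamp7, Ola1, Epb4.1l3, SlcUbl4a and 1190002N15Rik, with log2 changes from -0.43 (Ola1) to -1.97 (SlcUbl4a), and each lost its call without HET-7795, without HOM-7893 and without HOM-7899, some also without other libraries. Of the 18 lower genes with a known chromosome, 4 lay on X (22.2%, against 3.06% of all genes tested), and the median change of all X-linked genes was 0.0023.

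Promoters are printed for a pair of vessel genes (Cldn5, Emcn) and a pair of lower disease-associated genes (Spp1, Clec7a), so that the sequences of the opposite directions can be compared. They hold the 250 bases before the first listed RefSeq start, on the gene's strand, in GRCm38.p6: Cldn5 at chr16:18776597-18776846 (plus strand), Emcn at chr3:137340828-137341077 (plus), Spp1 at chr5:104434861-104435110 (plus) and Clec7a at chr6:129472780-129473029 (minus). Capitals mark a match of CAGGAAG (an ETS-type motif) or GAGGAAG (a PU.1-type motif) on either strand.
Cldn5: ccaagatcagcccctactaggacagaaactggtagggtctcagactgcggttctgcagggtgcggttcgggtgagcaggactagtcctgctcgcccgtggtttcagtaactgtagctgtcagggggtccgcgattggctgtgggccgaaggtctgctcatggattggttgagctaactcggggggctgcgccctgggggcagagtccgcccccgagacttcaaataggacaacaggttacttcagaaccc
Emcn: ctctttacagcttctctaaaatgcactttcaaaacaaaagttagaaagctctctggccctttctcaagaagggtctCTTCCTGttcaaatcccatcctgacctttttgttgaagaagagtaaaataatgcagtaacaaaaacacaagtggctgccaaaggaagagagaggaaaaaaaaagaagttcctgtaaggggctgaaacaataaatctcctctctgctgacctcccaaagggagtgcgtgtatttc
Spp1: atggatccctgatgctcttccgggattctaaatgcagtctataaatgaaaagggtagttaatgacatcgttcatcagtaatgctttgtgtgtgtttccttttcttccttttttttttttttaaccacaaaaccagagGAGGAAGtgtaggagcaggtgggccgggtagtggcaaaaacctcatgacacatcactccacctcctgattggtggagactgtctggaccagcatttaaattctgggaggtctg
Clec7a: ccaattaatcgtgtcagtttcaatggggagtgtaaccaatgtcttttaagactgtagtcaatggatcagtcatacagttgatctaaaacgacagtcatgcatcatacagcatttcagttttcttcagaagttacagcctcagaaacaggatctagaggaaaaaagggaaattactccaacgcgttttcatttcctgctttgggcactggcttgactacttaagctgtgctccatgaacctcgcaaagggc
Emcn held CAGGAAG on the minus strand, 174 to 168 bases before the start, and Spp1 held GAGGAAG on the plus strand, 113 to 107 bases before it. These letters were not in the windows of Cldn5 and Clec7a. CAGGAAG was in 10.5% of 27025 promoters, in 9.94% of the 9091 genes tested that had a promoter and in 11.8% of the 136 called-higher genes that had one. GAGGAAG was in 10.4%, 11% and 12.5% in that order, and the AP-1 motif TGANTCA in 6.87%, 4.17% and 5.88%. Of the 12 called-lower genes with a promoter, 2 held GAGGAAG and 0 held either of the other motifs.

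Most lists of microglial functions held 0 called genes in limma. Of 38 kept genes of the type I interferon response 0 were called (median 0.11), and 0 were called among MHC class I (20 kept, median 0.018) and MHC class II genes (13 kept, median -0.036), chemokines (15 kept, median -0.11), inflammatory cytokines and NF-kB targets (22 kept, median -0.069) and Toll-like receptors (18 kept, median -0.13). Autophagy (30 kept, median 0.059) and mTORC1 and nutrient sensing (27 kept, median 0.055), the processes in which the C9orf72 complex acts, held 0 calls each. Oxidative phosphorylation (54 kept, median 0.099), cytosolic ribosomal proteins (78 kept, median -0.010) and cholesterol synthesis (21 kept, median -0.023) also held 0 calls. At unadjusted p under 0.05 these 11 lists held between 0 and 5 genes each. Cd74, the chaperone of MHC class II molecules, was at 1486, 1374, 2481 and 1334 TPM in HET and at 2537, 2185, 1873 and 1931 TPM in HOM (limma adjusted p = 0.436).

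The RPKM tables, in which the authors give reads per kilobase and M alignments, were used as a second reading of the same libraries. They gave 299 called genes of 11173 (2.68%), 263 higher (2.35%) and 36 lower (0.322%). Of the 191 called TPM genes that were kept there, 178 were called in the same direction. Rcn3, a calcium-binding protein of the secretory pathway, differed between the tables. In TPM its HET animals were all under 0.001, its HOM animals were at 5.40, 4.77, 4.85 and 5.20, and the male WT-7785 was at 7.52. In RPKM the change was 0.55 (adjusted p = 0.182). Hltf, a helicase-like factor called lower in TPM (log2 change -1.05, adjusted p = 0.0408), had a change of -0.11 in RPKM (adjusted p = 0.571). The direction of these genes in TPM therefore has no counterpart of the same size in RPKM, and the call of Rcn3 was lost without any single HET or HOM animal.

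At 3 months the estimated HOM against HET changes of Cldn5, Id1, Cxcl12 and most other genes called higher at 17 months were negative, but the values of these 3 genes did not pass the test. The sexes of the groups also turned between the ages: by Y-linked transcripts HET held 4 males and 0 females and HOM 2 males and 2 females at 3 months, against 4 female HET and 3 male and 1 female HOM at 17 months. The median of the sex-linked list was -2.00 at 3 months and 2.54 at 17 months, so age, sex and genotype cannot be fully told apart in this difference. At 3 months 3 of 11587 genes were called (0.0259%), 2 higher (0.0173%) and 1 lower (0.00863%), with 991 at an unadjusted p under 0.05. Of 189 genes called higher at 17 months and tested at both ages, 176 had a negative change at 3 months, with a median of -0.71. The 3-month median of all genes kept at both ages was 0.0014, so about as many of them were negative as positive. The difference between the ages was called for 232 of 11436 genes (2.03%), 215 toward higher (1.88%) and 17 toward lower (0.149%) at 17 months. Of the 232, 230 had opposite signs at the ages, which a selection for a large difference favours. After median centring the split was 10 toward higher and 12 toward lower, and after quantile normalization 12 and 17, so the tilt to higher depended on scaling. The difference was called for 132 of the 189 and for 5 of 19 genes called lower. Genes called at 17 months were selected for a large change at that age, which is part of this difference. The selection therefore favours these counts and the calls in the difference of such genes named below.

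Cldn5 averaged 59.5 ± 50.6 TPM in HET and 19.3 ± 4.81 TPM in HOM at 3 months (log2 change -1.20, limma adjusted p = 0.573), and the change differed between the ages by 2.60 (limma adjusted p = 0.0361). Id1 averaged 13.9 ± 10.4 and 6.07 ± 1.56 TPM (-0.86, adjusted p = 0.619), with a difference of 2.52 (adjusted p = 0.0275). Cxcl12 averaged 13 ± 9.63 and 4.79 ± 1.02 TPM (-1.03, adjusted p = 0.549), with a difference of 2.62 (adjusted p = 0.0268). For all 3 genes the SD was larger in the 3-month HET animals than in HOM. The endothelial and mural list had a median of -1.09 at 3 months and of 1.08 at 17 months, and 7 of its 10 members were called in the difference. Markers of some other cell types turned in sign as well: medians were -0.94 and 0.56 for astrocytes, with 3 members called in the difference, -0.98 and 0.69 for choroid plexus and ependyma, -0.84 and 1.5 for erythrocytes, -1.10 and 0.20 for neurons and -0.38 and 0.40 for oligodendrocytes, with 0 called in the last 4. Border-associated macrophages turned too (-0.21 and 0.043). For oligodendrocyte precursors the -0.39 at 3 months was the value of Olig1 alone, and the 0.38 at 17 months a median of 3 genes. Medians were positive at both ages for monocytes (0.27 and 0.52), neutrophils (0.29 and 0.37), T and NK cells (0.67 and 0.39) and B and plasma cells (0.39 and 0.57). The 3-month medians cover only members kept at both ages. These were 9 of 10 for astrocytes, 6 of 8 for choroid plexus and ependyma and 5 of 7 for neurons. For T and NK cells they were 6 of 7, and for B and plasma cells 2 of 4.

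For the disease-associated genes, the 3-month changes were small or positive. Spp1 averaged 14.1 TPM in HET and 13.8 TPM in HOM (log2 change -0.01), and Lpl 17.8 and 19.5 TPM (0.12). Clec7a averaged 28.7 and 37.4 TPM (0.36), and Cd9 985 and 1196 TPM (0.28). None of these 4 changes passed at 3 months (limma adjusted p from 0.342 to 0.998). The difference between the ages was called for 7 of the 26 kept members, all toward lower at 17 months, among them Spp1 (-1.41, adjusted p = 0.0485), Lpl (-1.48, adjusted p = 0.0251), Clec7a (-1.28, adjusted p = 0.0275) and Cd9 (-0.67, adjusted p = 0.0185). Gpr34 averaged 1098 and 1015 TPM at 3 months, and its difference between the ages did not pass (-0.64, adjusted p = 0.462).

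The count of 232 rested on single libraries. It was 0 without HET-7795, and 0 without the 3-month animals HET-8302 or HOM-8285. It was 100 without HET-7794, 20 without HET-7796, 34 without HOM-7835, 80 without HOM-7893, 7 without HOM-7899, 66 without HOM-7901 and 153 without WT-7783. Among the 3-month libraries it was 443 without HET-8303, 80 without HET-8304, 11 without HOM-8282, 33 without HOM-8286 and 7 without HOM-8287. With a sex term it was 244, of which 140 were among the 232, and after median centring it was 22, with 10 toward higher and 12 toward lower.

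**Figure D5:**
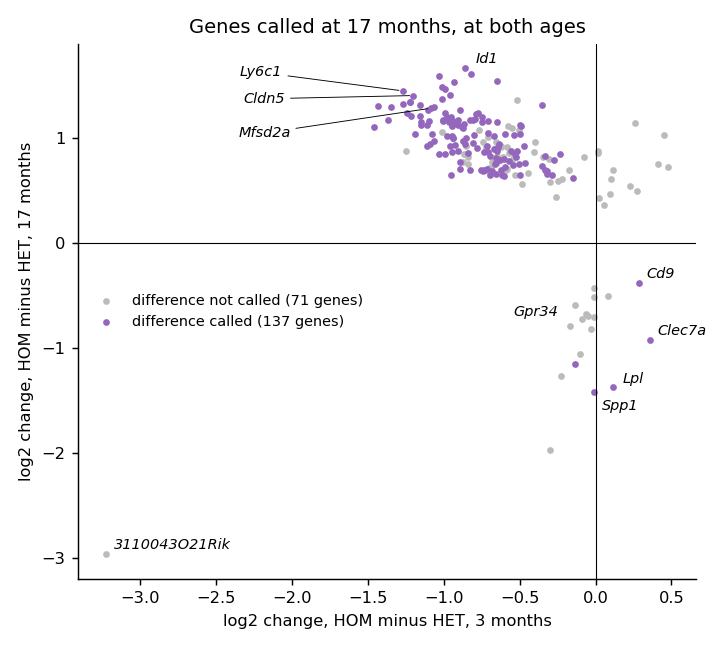
Each point is 1 of 208 genes called at 17 months and tested at both ages, with the log2 change (HOM minus HET) at 3 months on the horizontal axis and at 17 months on the vertical axis, and purple where the difference between the ages was called (137 genes). Vessel genes such as Cldn5 lie at the upper left (-1.20 at 3 months, 1.40 at 17 months), and Spp1, Lpl, Clec7a and Cd9 lie below zero at 17 months and near or above zero at 3 months.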

How the data were processed

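Microglia of 12 mice of 17 months and 12 of 3 months were analysed, 4 per genotype. The authors deposited, per age, a table of TPM summed to 20636 genes and a table of RPKM with alignments per library. The submitters' processing notes name the build mm10 and the tools Salmon 0.8.2, TopHat2 2.1.1, DESeq2 and Partek 7.17.0918, without saying which made which table. The tables hold no counts, so no count model was used. TPM columns were grouped through the RPKM headers, where "hemi" was taken as heterozygous. The labels give no animal numbers, so the labelled RNA input was compared by group only. For each of the 12 animals, the RPKM column most like its TPM column was its own (r from 0.671 to 0.953). The most similar pair of animals still had an SD of 0.263 in the log2 difference over genes. The listed TPM summed to 78.9% to 90.7% of the total, and depth was 16.7 to 46.4 M alignments at 17 months.

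Tests used limma 3.58.1 in R 4.3.3 on log2(TPM + 1) for genes averaging 1 TPM or more, with a mean per genotype, a trend, two-sided p-values and Benjamini-Hochberg adjustment over all genes kept. The difference between ages was fitted over 24 animals. The column headers carry a separate animal number for each library. P-values measure the spread between animals. Sex was read from 4 Y-linked genes with a limit of 5 TPM. Gene positions come from GENCODE M21 (GRCm38) and promoters from RefSeq (GRCm38.p6). The members and lists were chosen with earlier results of these data known, and the lists of endothelial identity and regulators, barrier, basement membrane, mural, fibroblast, caveola, Wnt and BMP genes after seeing the values. Named genes were the target and its partners, up to 15 with the largest change in each direction among called genes of at least 5 TPM whose groups did not overlap, up to 4 called members per list (or its 2 most abundant), sex-linked transcripts and the first 10 of the difference between ages. The other genes named were chosen after their values were seen. The test was checked on simulated data. Alternatives were another pseudocount, filter, scaling or weighting, a sex term, females only, the RPKM table and leaving out each animal.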

Additional observations from a re-analysis of the deposited data

Results flagged for a closer look

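In groups of 4 animals, an animal was singled out where its gap to the nearest other, relative to the group's range, exceeded Dixon's 95% critical value. That held in 15 of 318 groups (4.72%), and chance gives about 1 in 20. HOM-7901, the single female HOM, was low for the vessel genes Egfl7 (57.7 TPM, others 74.1 to 76.3) and Flt1 (15.7, others 24.3 to 25.5). It was also low in the mean log2 score of endothelial transcription regulators (0.17, others 0.50 to 0.55) and of sex-linked transcripts (-1.16, others 2.26 to 2.44), and high in that of fibroblast genes (1.10, others 0.090 to 0.24). HOM-7835 was high for Lamp2 (225 TPM, others 165 to 167) and Tmed5 (22.7, others 15 to 16.1). HET-7795 was high for Csf1 (72.2, others 54.3 to 56.9) and Cd74 (2481, others 1334 to 1486). HET-7796 was low for Insl3 (8.24, others 15 to 16.4), in the score of BMP receptors, Smads and Id genes (-0.43, others -0.051 to -0.039) and in the listed TPM total (78.9%, others 87.8% to 88.7%). HOM-7899 was high for the monocyte marker Plac8 (559.7 TPM, others 51.5 to 107) and in depth (46.4 M alignments, others 40.7 to 41.5). HOM-7893 was low in the score of disease-associated genes (-0.49, others -0.12 to -0.080).

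The HOM against HET change differed between 17 and 3 months for 232 genes by the interaction test in limma. The 10 with the smallest p were the vessel genes Mfsd2a (2.36), Egfl7 (1.97) and Ccm2l (1.82), Grrp1 (2.43), Vsig2 (2.36), Cyp2d22 (1.56), Hdac7 (1.39) and Dlc1 (1.12), and, lower at 17 months, Lpl (-1.48) and Cd9 (-0.67), as differences of the log2 change.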

How the results depend on the processing

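The 219 calls became 89 with a mean of at least 5 TPM, 1136 with array weights, 45 with a sex term and 1 among females only, and 104 to 246 with an animal left out. Higher calls (199) became 77, 791, 42 and 0 in the same order, 131 after quantile normalization, and 96 to 219 with an animal left out. Lower calls (20) became 12, 345, 3 and 1 in that order, 13 without a filter, 94 after median centring, 64 after quantile normalization, 36 in the RPKM table, 11 with the 8 HOM and HET animals only, and 4 to 27 with an animal left out. The 232 calls between ages became 55 with a mean of at least 5 TPM, 22 after median centring, 29 after quantile normalization, 1119 with array weights and 90 in the RPKM tables, and 0 to 443 with an animal left out. The RPKM calls (299) became 101 with a mean of at least 5 RPKM. The RNA input difference was 102.7 ng, 63.1 to 125 ng with a sample left out, and 125 ng (exact permutation p = 0.0286) without HOM replicate 1. The targeted gene kept its direction and call throughout. The cause of these shifts was not tested.

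No paired analysis was possible because the table columns carry animal numbers, which the labels do not give beside their replicate numbers. With 4 animals a group, sex largely shared with genotype and no counts in these tables, differences near 1 TPM and those between genotypes of a single sex were at the limit of what these libraries show.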
